A study of Mus musculus with 8 samples.

Results

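Immediate early genes are the first genes that a cell transcribes when a growth factor, cytokine or stress signal arrives, and they need no newly made protein to be switched on. Of the 49585 genes in the count table, 10 were followed here: the AP-1 genes Fos, Fosb, Jun and Junb, the other early response genes Egr1, Ier2, Ier3 and Myc, and the phosphatase genes Dusp1 and Dusp6. They were chosen by name, through the mouse symbols of their Ensembl identifiers, and all 10 were found in the table. Fosb did not reach the minimum of edgeR's filter on low counts, so the tests cover 9 of the 10.

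The RNA came from livers of 8 male mice fed HFCD, a choline-deficient diet rich in fat under which lipid builds up in hepatocytes, for 3 months from 21 days of age. LP245/+ livers (n = 3, Alb-CreTG, Trp53wm-R245W/+) carry 1 Trp53 allele that Alb-Cre converts to the p53R245W mutant, and LPfl/+ livers (n = 2, Alb-CreTG, Trp53fl/+) carry 1 allele that Alb-Cre deletes. LP+/+ livers (n = 3) are Alb-Cre0, that is without Cre, in the sample labels, where replicates 1 and 2 carry the unrecombined Trp53fl/+ and replicate 3 the unrecombined Trp53wm-R245W/+. The study's text describes the LP+/+ cohort as carrying Cre, and also lists littermates without Cre among the controls. Alb-Cre acts in hepatocytes and bile duct cells and leaves the other cells of the liver as they were, and whole liver tissue was sequenced. In bulk tissue, fewer cells of a type and less RNA per cell cannot be told apart.

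The ERK pathway carries a growth factor signal from a receptor through RAS, RAF and MEK to the kinase ERK, which phosphorylates factors that sit on immediate early promoters. Fos and Jun proteins then pair into AP-1, Egr1 is a zinc-finger factor, and Myc drives growth and ribosome production. The pathway also makes its own brake. Dusp6 encodes a cytoplasmic phosphatase that acts on ERK and is itself transcribed when ERK is active, while Dusp1 encodes a nuclear phosphatase that also acts on the stress kinases p38 and JNK and is induced by stress and glucocorticoids. In liver, immediate early genes are known for the surge that follows partial hepatectomy.

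Depth was between 26304526 and 31370714 counts per liver. The library numbers in the sample labels fall into 2 runs of consecutive numbers, called here the first series (LP+/+ replicates 2 and 3 and the 3 LP245/+ livers) and the second series (LP+/+ replicate 1 and the 2 LPfl/+ livers). Cdkn1a, a p53 target, had normalized read counts of 138 to 188 in LP+/+, 74.98 to 99.97 in LPfl/+ and 14.5 to 27.5 in LP245/+ livers, without overlap, where a normalized read count is the raw count divided by the DESeq2 size factor of the liver. Trp53 had 202 to 258, 127 to 178 and 193 to 316, so both LPfl/+ livers lay below every LP+/+ liver. The 9 hepatocyte marker genes, which include Alb and Ttr, were read in every liver and summed to between 112175 and 148496 CPM (counts scaled to a common library total).

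The promoters of Fos, Dusp1 and Dusp6 are shown because Fos is the reference gene of this class, and because the phosphatase genes were the 2 of the 10 whose levels separated the series of library numbers. Each run is the 250 bases before the RefSeq start on GRCm38.p6, 5′ to 3′ on the strand of the gene, with capitals for the motifs TGACG, TGACGTCA and TATAAA described below. They are chr12:85473640-85473889 (plus strand) for Fos, chr17:26508473-26508722 (minus strand) for Dusp1 and chr10:99262981-99263230 (plus strand) for Dusp6.
Fos: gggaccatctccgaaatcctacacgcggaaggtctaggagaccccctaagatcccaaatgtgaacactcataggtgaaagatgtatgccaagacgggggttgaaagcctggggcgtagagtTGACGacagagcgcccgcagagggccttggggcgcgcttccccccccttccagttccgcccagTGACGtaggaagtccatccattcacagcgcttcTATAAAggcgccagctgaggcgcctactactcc
Dusp1: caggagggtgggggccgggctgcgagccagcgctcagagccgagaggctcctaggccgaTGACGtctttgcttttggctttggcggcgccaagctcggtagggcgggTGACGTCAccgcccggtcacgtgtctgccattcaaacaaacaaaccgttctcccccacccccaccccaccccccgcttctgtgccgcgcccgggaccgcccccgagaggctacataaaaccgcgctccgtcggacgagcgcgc
Dusp6: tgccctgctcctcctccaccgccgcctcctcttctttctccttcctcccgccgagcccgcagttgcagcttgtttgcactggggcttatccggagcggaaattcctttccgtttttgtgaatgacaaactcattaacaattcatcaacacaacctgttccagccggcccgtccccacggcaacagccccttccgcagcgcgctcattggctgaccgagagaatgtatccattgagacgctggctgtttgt

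RefSeq windows of 250 bases before and 50 after the start were given for 7 of the 10 genes (Fos, Fosb, Jun, Junb, Ier3, Dusp1 and Dusp6) and were searched on both strands. The cyclic AMP response element TGACGTCA, which contains TGACG on each strand, was found in the Dusp1 window alone, 143 bases before the start, and in 1.79% of the 32851 windows of all genes. Its core TGACG was found in 4 of the 7 windows, those of Fos (129 and 66 bases before the start), Fosb (60), Junb (106) and Dusp1 (191, 143 and 140), and in 20.8% of all windows. TATAAA lay 33 bases before the start of Fos and at the start of Junb, and in 13.6% of all windows. The AP-1 site TGACTCA and the CArG box, the serum response factor motif, were found in 0 of the 7 windows, and in 5.2% and 1.63% of all windows. Sites farther upstream than 250 bases, variants of these motifs and the promoters of Egr1, Ier2 and Myc were not searched. A motif not found here may thus still lie near the gene. These matches describe letters in the window and nothing about binding.

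Levels differed widely among the 10 genes. In RPKM, reads per kilobase of exon scaled to the library total, as the mean ± SD of the 8 livers, Dusp6 had the highest level at 15.2 ± 5.12, above 87.7% of the genes tested. Dusp1 (6.30 ± 2.21) and Ier2 (6.01 ± 1.13) came next with ranges that overlapped, followed by Junb (3.54 ± 0.878) and Jun (3.45 ± 0.865), which overlapped as well. Myc (0.730 ± 0.776), Fos (0.443 ± 0.153), Egr1 (0.370 ± 0.136) and Ier3 (0.308 ± 0.0499) were far lower, and Ier3 lay above 16.6% of the genes tested. Fosb, at 0.0202 ± 0.0111, rested on 1 to 7 reads per liver.

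**Figure D1:**
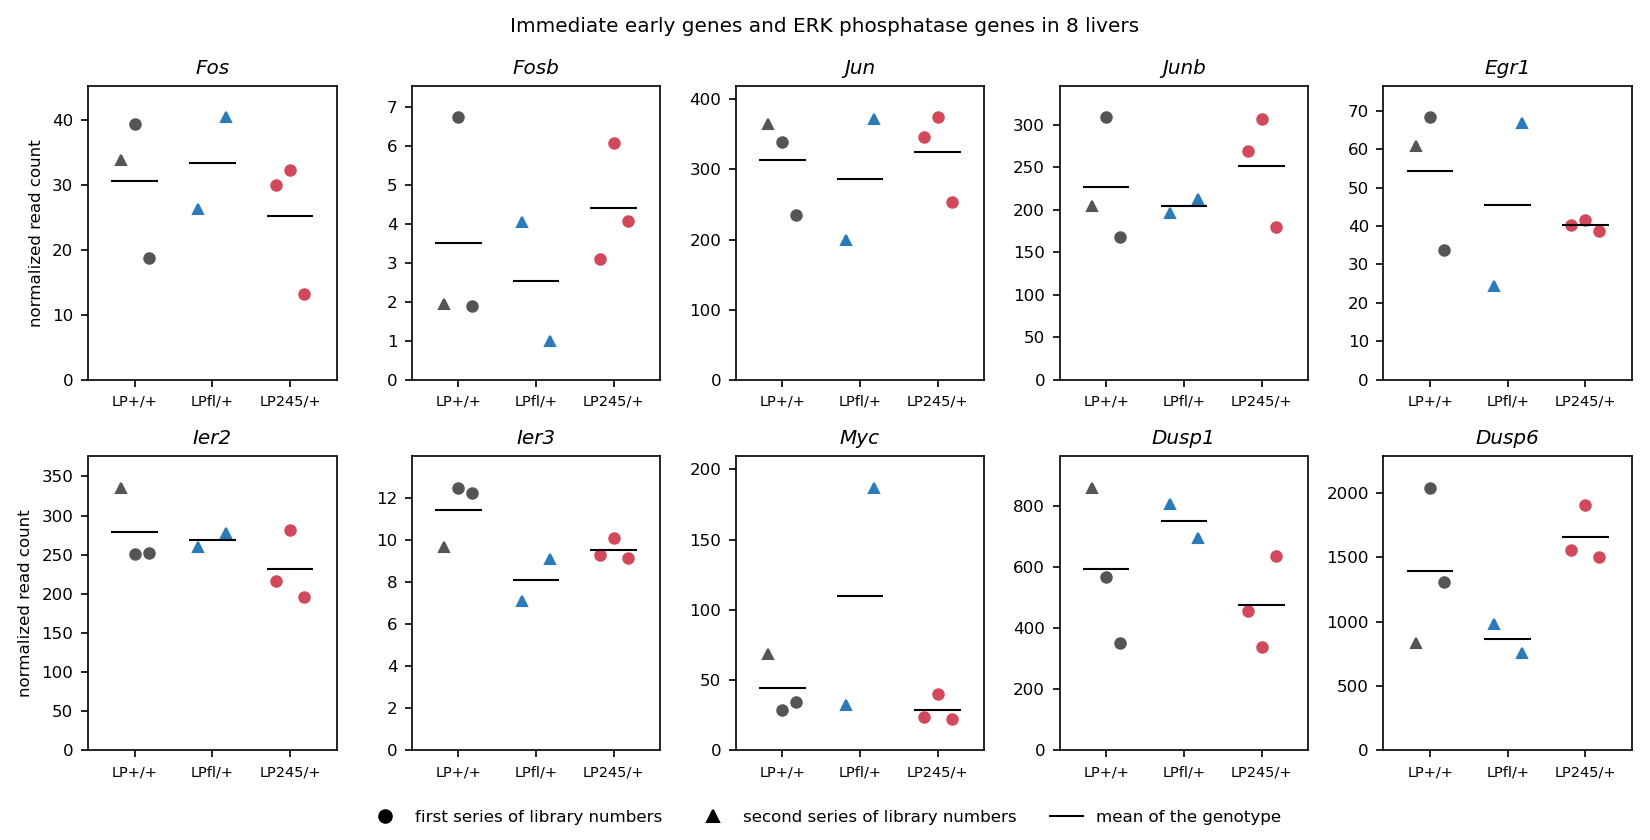
Normalized read counts (y axes from 0, a scale for each gene) of the 10 genes in 3 LP+/+, 2 LPfl/+ and 3 LP245/+ livers. Points are livers, circles the first and triangles the second series of library numbers, and lines the genotype means. The Dusp6 circles lie at 1309 to 2038 and the triangles at 753 to 984, the Dusp1 triangles lie above all circles, and 1 LPfl/+ liver stands alone in Myc at 187.

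Across the genotypes, 0 of the 9 tested genes passed the cutoff in any comparison. The cutoff, an adjusted p no higher than 0.05 and a log2 fold change of 1 or more in size, was applied to edgeR's quasi-likelihood test with Benjamini-Hochberg adjustment over the 16496 genes tested. It was passed by 0.00606% of all genes tested in LP245/+ against LP+/+, by 0.0% in LPfl/+ against LP+/+ and by 0.0% in LP245/+ against LPfl/+, so the absence of calls was shared with nearly the whole table. DESeq2 called 0 members in each comparison, of the 10, 9 and 8 to which it gave an adjusted p, and 0.053%, 0.0581% and 0.39% of all genes with an adjusted p. At an unadjusted p below 0.05 there were 0, 0 and 2 of the 9 genes by edgeR, beside 5.93%, 6.89% and 8.51% of all genes tested, and 0, 2 and 3 of the 10 genes by DESeq2, beside 2.7%, 3.13% and 4.11% of the genes it tested. The test of any difference among the 3 genotypes gave 0 of the 9 genes past an adjusted p of 0.05 (0.0% of all genes tested) and 2 at an unadjusted p below 0.05 (7.79% of all genes tested), namely Myc and Dusp6.

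The median log2 fold change of the 9 genes was −0.26 in LP245/+ against LP+/+, with 3 genes higher and 6 lower, −0.12 in LPfl/+ against LP+/+, with 3 higher and 6 lower, and −0.18 in LP245/+ against LPfl/+, with 4 higher and 5 lower. The medians of all genes tested were 0.00, −0.00 and 0.00. Without LPfl/+ replicate 2, the last 2 medians of the 9 genes became −0.45 and 0.36, and without LPfl/+ replicate 1 the median in LPfl/+ against LP+/+ became 0.23. The sign of the median thus changed with the LPfl/+ liver that was kept. These comparisons share their livers and are not independent of each other.

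**Figure D2:**
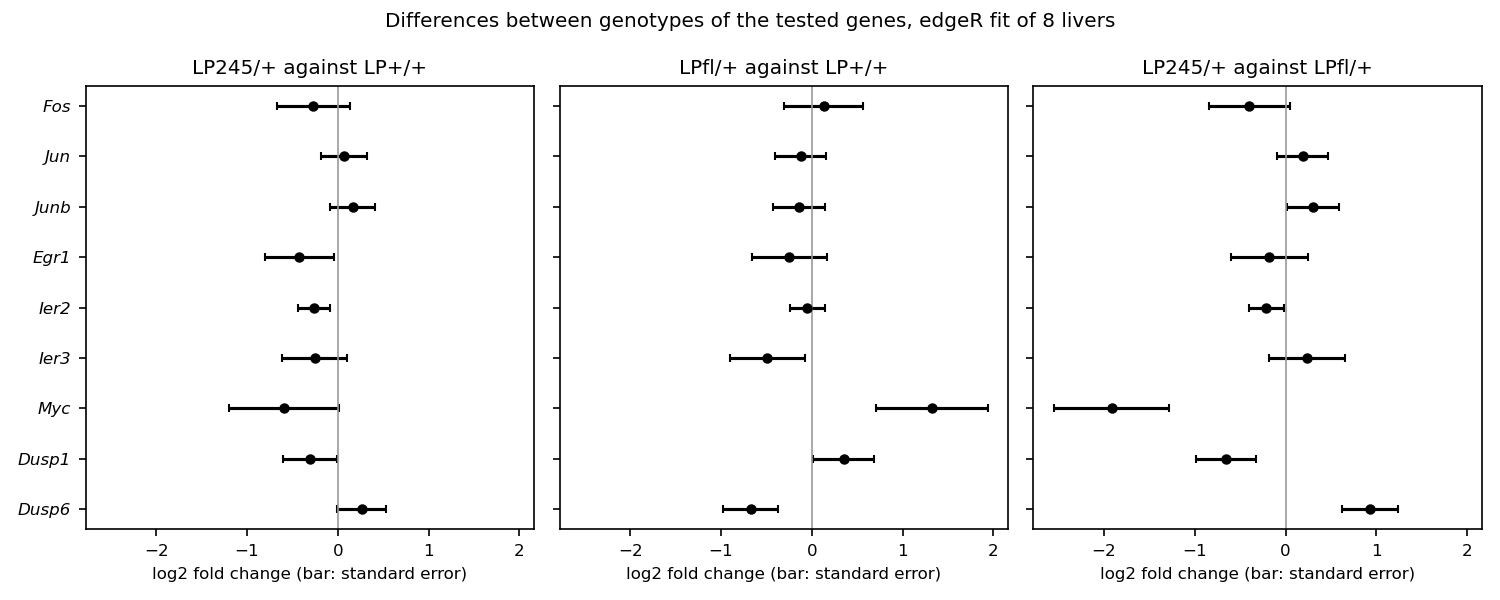
Log2 fold changes (x axes) of the 9 tested genes (y axis) in the 3 comparisons, from the edgeR fit of 8 livers, with bars for 1 standard error. Most bars reach or lie near 0, and Myc (−1.92) and Dusp6 (0.93) in LP245/+ against LPfl/+ lie farthest from it in units of their error.

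Fos, the partner of Jun proteins in AP-1 (chromosome 12, 85473890 to 85477273, plus strand), was read 35, 41 and 20 times in the LP+/+ replicates, 26 and 40 times in the LPfl/+ replicates and 29, 32 and 13 times in the LP245/+ replicates. The genotypes overlapped over most of this range. Its log2 fold change was −0.27 ± 0.40 (SE) in LP245/+ against LP+/+ (adjusted p = 0.935) and 0.13 ± 0.44 in LPfl/+ against LP+/+ (adjusted p = 0.965). Fosb (chromosome 7, 19302696 to 19310051, minus strand), a related AP-1 subunit, was read 2, 7 and 2 times, 4 and 1 times, and 3, 6 and 4 times in the same order, below the minimum of the test.

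Jun lies at chromosome 4, 95049034 to 95052222, on the minus strand. The LP+/+ replicates showed 365, 339 and 234 normalized read counts of Jun, the LPfl/+ replicates 200 and 372, and the LP245/+ replicates 346, 374 and 254. Each genotype held livers at both ends of the range, and the log2 fold changes were between −0.12 and 0.19. Junb (chromosome 8, 84974484 to 84978718, minus strand) also pairs with Fos. Its values were 204, 308 and 168 for the LP+/+ replicates, 197 and 212 for the LPfl/+ replicates and 269, 306 and 179 for the LP245/+ replicates, and its log2 fold changes lay between −0.14 and 0.30. Jun overlaps the antisense gene Junos and Junb overlaps Prdx2, each on the opposite strand, and the strand setting of the counting is not given in the sources used here.

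Egr1 lies at chromosome 18, 34859823 to 34864984, on the plus strand. The LP+/+ replicates showed 60.9, 68.2 and 33.9 normalized read counts of Egr1, the LPfl/+ replicates 24.3 and 66.6, and the LP245/+ replicates 40.3, 41.4 and 38.7. The 3 LP245/+ livers lay close together and inside the range of each other genotype. Its log2 fold change in LP245/+ against LP+/+ was −0.42 ± 0.37 (adjusted p = 0.883).

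Ier2, a small nuclear protein of the early response (chromosome 8, 84661331 to 84662852, minus strand), showed 335, 251 and 252 normalized read counts for the LP+/+ replicates, 259 and 278 for the LPfl/+ replicates and 216, 282 and 196 for the LP245/+ replicates. In LP245/+ against LP+/+ its log2 fold change was −0.26 ± 0.18 (adjusted p = 0.846). Ier3, which acts on cell survival (chromosome 17, 35821684 to 35822923, plus strand), was read 10, 13 and 13 times in the LP+/+ replicates, 7 and 9 times in the LPfl/+ replicates and 9, 10 and 9 times in the LP245/+ replicates. Normalized Ier3 was lower in both LPfl/+ livers than in every other liver, at 7.09 and 9.09 against 9.16 to 12.5, a gap of less than 1 read. Its log2 fold change in LPfl/+ against LP+/+ was −0.49 ± 0.41 (adjusted p = 0.828).

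Myc (chromosome 15, 61985391 to 61990374, plus strand) was high in 1 liver. The LP+/+ replicates showed 68.6, 28.8 and 34.8 normalized read counts of Myc, the LPfl/+ replicates 32.4 and 187, and the LP245/+ replicates 23.8, 40.4 and 22.4. LPfl/+ replicate 2 was 2.72-fold above the next highest liver, and 6 of the 16496 genes tested stood at or above that fold in their highest liver. That liver held 32 genes (0.194%) at least 2-fold above all other livers, against 1 to 61 genes in the others, so it was not the liver with the most such genes. The log2 fold change of Myc was 1.32 ± 0.62 in LPfl/+ against LP+/+ (adjusted p = 0.736) and −1.92 ± 0.64 in LP245/+ against LPfl/+ (unadjusted p = 0.0134, adjusted p = 0.465). Without LPfl/+ replicate 2 the values were −0.45 and −0.16. The log2 ratio of the means within a series was −0.14 for LP245/+ to LP+/+ and 0.68 for LPfl/+ to LP+/+. Between the LP+/+ livers of the second and the first series it was 1.11. With the series as a covariate, the log2 fold change in LP245/+ against LP+/+ went from −0.60 to −0.13. In LP245/+ against LPfl/+, genotype and series cannot be told apart. When no filter on low counts was applied, Myc passed the cutoff in LP245/+ against LPfl/+ (log2 fold change −1.91, adjusted p = 0.0375), as 1 of the 10 genes and beside 0.403% of the 30240 genes then tested. Over the 16 alternatives its adjusted p in that comparison ranged from 0.0375 to 0.995.

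Dusp6, the ERK phosphatase gene (chromosome 10, 99263231 to 99267489, plus strand), showed 835, 2038 and 1309 normalized read counts for the LP+/+ replicates, 984 and 753 for the LPfl/+ replicates and 1554, 1908 and 1506 for the LP245/+ replicates. Its log2 fold change was 0.93 ± 0.31 in LP245/+ against LPfl/+ (unadjusted p = 0.0131, adjusted p = 0.462), −0.67 ± 0.31 in LPfl/+ against LP+/+ (adjusted p = 0.727) and 0.26 ± 0.27 in LP245/+ against LP+/+ (adjusted p = 0.900). Over the 16 alternatives, the adjusted p of Dusp6 in LP245/+ against LPfl/+ ranged from 0.0358, with no filter on low counts and at a log2 fold change of 0.94, below the fold cutoff, to 0.995. The 5 livers of the first series, at 1309 to 2038, did not overlap the 3 of the second series, at 753 to 984. LP+/+ replicate 1, the control in the second series, lay with the LPfl/+ livers, and the other LP+/+ livers lay with the LP245/+ livers. Within a series the genotypes were close: the means gave a log2 ratio of −0.02 between LP245/+ and LP+/+ in the first series and of 0.06 between LPfl/+ and LP+/+ in the second, while LP+/+ of the second series to LP+/+ of the first gave −1.004.

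Dusp1 (chromosome 17, 26505590 to 26562128, minus strand) went the other way. The LP+/+ replicates showed 858, 567 and 352 normalized read counts of Dusp1, the LPfl/+ replicates 805 and 695, and the LP245/+ replicates 457, 336 and 634. The second series, at 695 to 858, lay above the first, at 336 to 634. The log2 ratio of the means within a series was 0.05 for LP245/+ to LP+/+ and −0.19 for LPfl/+ to LP+/+, and 0.90 between the LP+/+ livers of the second and the first series. Over the genotypes the log2 fold change was −0.66 ± 0.33 in LP245/+ against LPfl/+ (unadjusted p = 0.0772, adjusted p = 0.629), a comparison in which genotype and series cannot be told apart. The annotated Dusp1 model is long and overlaps Ergic1 and Gm8225 on the opposite strand and 2 other genes on its own strand.

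**Figure D3:**
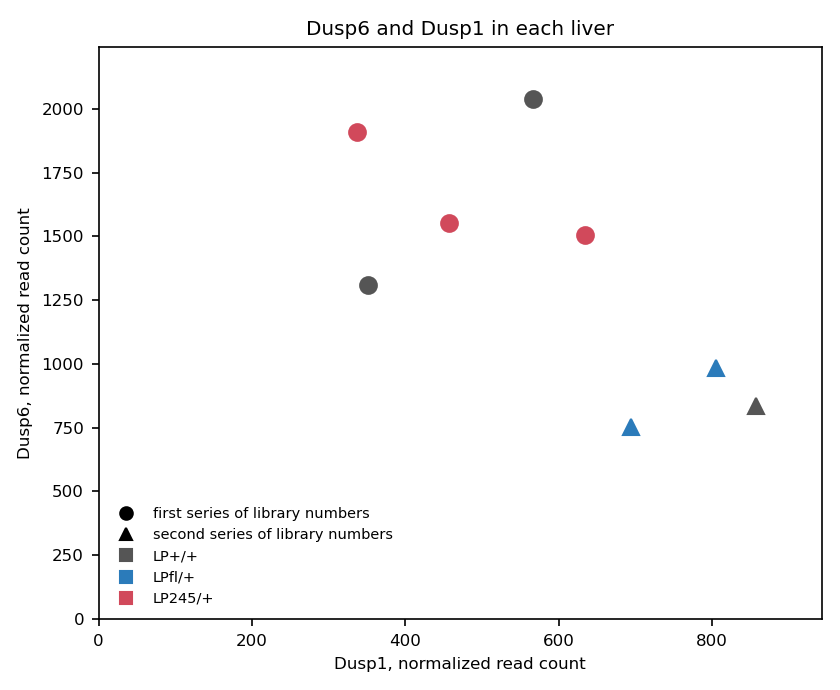
Normalized read counts of Dusp6 (y axis) against Dusp1 (x axis) in each of the 8 livers, both axes from 0, with color for the genotype and shape for the series of library numbers. The 3 livers of the second series, 1 LP+/+ and 2 LPfl/+, lie at the lower right, at 753 to 984 for Dusp6 and 695 to 858 for Dusp1.

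The series of library numbers separated other genes too. Ranges did not overlap between the series in 2 of the 9 members (22.2%) and in 9.57% of all genes tested, so a separation of this kind was not rare. With the genotypes in place of the series, ranges did not overlap in 0 of the 9 members in LP245/+ against LP+/+ (11.8% of all genes tested), in 1 in LPfl/+ against LP+/+ (Ier3, 25.1%) and in 3 in LP245/+ against LPfl/+ (Dusp6, Ier3 and Dusp1, 25.4%). When the series was added to the fit as a covariate, the log2 fold change of Dusp6 became −0.00 in LP245/+ against LP+/+, 0.07 in LPfl/+ against LP+/+ and −0.07 in LP245/+ against LPfl/+, and that of Dusp1 became 0.06, −0.19 and 0.25. The last comparison then rests on the LP+/+ livers as the only link between the series.

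Of 19 tested ERK feedback and ERK output genes, 16 overlapped between the series and 3 did not. The 3 (15.8%) were higher in every liver of the first series, as were 4.49% of all genes tested, and 0 were lower, against 5.09% of all genes tested: Spry4, a feedback inhibitor of receptor signaling, with 507 to 693 against 229 to 390 normalized read counts, Ccnd1, the cyclin D1 gene, with 538 to 768 against 323 to 487, and Etv1, an ETS factor, with at least 23.2 against at most 20.2. Etv1 and Ccnd1 were named after their values were seen. Of 34 tested other immediate early genes, 3 were higher (Zfp36l2, Nr4a2 and Nfkbiz) and 2 lower (Nr4a1 and Gadd45g) in the first series, so that list had no common direction. These 5 genes, but for Gadd45g, were also named after their values were seen.

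The series also separated some clock, heat shock, stress kinase and hepatocyte marker genes, beside 9.57% of all genes tested. Of 13 tested clock genes, 7 (53.8%) did not overlap: 4 (Nr1d1, Dbp, Tef and Per2) were higher and 3 (Arntl, Npas2 and Clock) lower in every liver of the first series, and Dbp, a clock output gene, had 102 to 667 against 23.2 to 64.8 normalized read counts. Of 12 tested heat shock response genes, 4 (33.3%: Hspa1a, Hspa1b, Hspa8 and Dnajb1) were higher and 0 lower. Except for Dbp, Per2, Hspa1b and Dnajb1, these genes were named after their values were seen. Of 10 tested stress kinase genes, 30.0% did not overlap, 1 higher (Map3k5) and 2 lower (Mapk8 and Map3k1) in the first series. Of 9 tested hepatocyte marker genes, 33.3% did not overlap, 2 higher (Cyp2e1 and Hnf4a) and 1 lower (Fgb). The share was 6.9% of 29 cascade and receptor genes and 0.0% of 8 tested ligand genes. Among cell type markers, the summed CPM of the 8 neutrophil genes were 3.46 to 4.58 in the first and 4.74 to 5.73 in the second series, with Ly6g, a defining neutrophil gene, at 0 in every liver, and those of the 8 lymphocyte genes were 2.65 to 4.71 and 4.76 to 7.72. The 8 Kupffer cell and macrophage genes (303 to 399 and 359 to 472), the 8 endothelial genes (427 to 522 and 338 to 461), the 8 stellate cell genes (352 to 414 and 304 to 414), the 7 cholangiocyte genes (24.3 to 34.9 and 27.8 to 42.8) and the 6 erythroid genes (319 to 670 and 348 to 672) overlapped in their sums. Gene by gene, all 4 tested neutrophil and all 6 tested lymphocyte genes overlapped, so only their sums were separate. The share of single genes without overlap was 25.0% of 8 endothelial, 12.5% of 8 stellate cell and 20.0% of 5 tested cholangiocyte genes. It was 0.0% for the Kupffer cell and macrophage genes and for the erythroid genes.

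Between the genotypes, the other genes of the pathway gave no calls either. Of the 40 other immediate early genes, 34 were tested, 18 higher and 16 lower in LP245/+ against LP+/+ with a median log2 fold change of 0.05. Gadd45g, a stress and growth arrest gene, had the smallest p of that list: the LP+/+ replicates showed 495, 65.3 and 98.8 normalized read counts of it, the LPfl/+ replicates 414 and 875, and the LP245/+ replicates 65.1, 46.5 and 79.4, so it was high in the 3 livers of the second series. Its log2 fold change in LP245/+ against LPfl/+ was −3.34 ± 0.74 (adjusted p = 0.362). Trib1, a pseudokinase gene, and Btg2, an antiproliferative gene and p53 target, followed. Their log2 fold changes, in the comparison with the smallest p of each gene, as in the paragraphs that follow, were 0.45 ± 0.13 for Trib1 in LP245/+ against LPfl/+ (adjusted p = 0.406) and −0.85 ± 0.28 for Btg2 in LPfl/+ against LP+/+ (adjusted p = 0.697).

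ERK feedback and ERK output genes were 13 higher and 6 lower of 19 tested in LP245/+ against LP+/+ (median 0.09), 6 higher and 13 lower in LPfl/+ against LP+/+ (median −0.05), and 11 higher and 8 lower in LP245/+ against LPfl/+ (median 0.16), with 0 called in each. The genes with the smallest p were Dusp16, a phosphatase of the JNK branch (0.24 ± 0.10 in LP245/+ against LP+/+, adjusted p = 0.831), and, in LP245/+ against LPfl/+, the ephrin receptor gene Epha2 (0.60 ± 0.25, adjusted p = 0.550) and Spry4 (0.94 ± 0.37, adjusted p = 0.537). Genotype and series cannot be told apart in that comparison. For Spry4, the log2 ratio of the means within a series was 0.05 for LP245/+ to LP+/+ and 0.48 for LPfl/+ to LP+/+. Between the LP+/+ livers of the second and the first series it was −1.36. Of the 29 genes of the cascade and its receptors, 12 were higher and 17 lower in LP245/+ against LP+/+, 8 higher and 21 lower in LPfl/+ against LP+/+, and 18 higher and 11 lower in LP245/+ against LPfl/+, with 0 called in each. Egfr, a receptor at the head of the pathway, had 24827 to 37663 normalized read counts in LP245/+ and 10861 to 23645 in LP+/+ livers without overlap, a log2 fold change of 0.95 ± 0.31 (adjusted p = 0.795). The ERK1 gene Mapk3 was −0.40 ± 0.13 in LPfl/+ against LP+/+ (adjusted p = 0.697) and −0.0083 ± 0.12 in LP245/+ against LP+/+, and the insulin receptor gene Insr was 0.44 ± 0.15 in LP245/+ against LPfl/+ (adjusted p = 0.486).

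Of 8 tested ligand genes, 0 were called. Fgf21, a hepatokine that signals through FGF receptors and ERK, had 190 to 227 normalized read counts in LP245/+, 117 to 126 in LP+/+ and 68.7 to 74.0 in LPfl/+ livers, and its log2 fold change in LP245/+ against LPfl/+ was 1.57 ± 0.17 (adjusted p = 0.0818). Btc, an EGF receptor ligand, was 0.90 ± 0.26 in LPfl/+ against LP+/+ (adjusted p = 0.697), and Igf1 was 0.23 ± 0.11 in LP245/+ against LP+/+ (adjusted p = 0.831). Of 10 stress kinase genes and 9 genes of factors that act on immediate early promoters, 0 were called. The smallest p belonged to the stress kinase kinase gene Map3k5 (0.48 ± 0.12 in LP245/+ against LPfl/+, adjusted p = 0.362) and to Elk3 (0.52 ± 0.18 in LP245/+ against LPfl/+, adjusted p = 0.484), an ETS partner of serum response factor, while Srf itself was −0.33 ± 0.14 in LP245/+ against LP+/+ (adjusted p = 0.818). Map3k5 was also higher in every liver of the first series, and LP245/+ against LPfl/+ cannot tell genotype from series. In LP245/+ against LP+/+ Map3k5 was 0.41 ± 0.11 (adjusted p = 0.795), and in LPfl/+ against LP+/+ −0.07 ± 0.12. Within the first series it had 1316 to 1678 normalized read counts in LP245/+ livers and 1112 and 1214 in LP+/+ livers.

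Clock genes gave 0 calls between the genotypes, but many had a low unadjusted p where LP245/+ was compared. In LP245/+ against LP+/+, 9 of 13 were higher and 4 lower (median log2 fold change 0.60), and 6 higher and 3 lower genes had an unadjusted p below 0.05, beside 5.93% of all genes tested. In LP245/+ against LPfl/+ these were 7 and 3 (8.51% of all genes tested), and in LPfl/+ against LP+/+ 0 and 0 (6.89%). Dbp was 2.09 ± 0.59 in LP245/+ against LP+/+ (adjusted p = 0.795), and the log2 ratio of its means within the first series alone was 1.60. Per2, a core clock repressor, was 0.54 ± 0.14 (adjusted p = 0.795), with 0.45 within the first series. Heat shock genes were 8 higher and 4 lower of 12 in LP245/+ against LP+/+ (median 0.16), with 2 higher genes at an unadjusted p below 0.05, 4 higher and 8 lower in LPfl/+ against LP+/+ (median −0.11), with 3 lower genes, and 6 higher and 6 lower in LP245/+ against LPfl/+ (median 0.14), with 4 higher and 1 lower. Hspa1b, an inducible HSP70 gene, was 2.21 ± 0.32 in LP245/+ against LPfl/+ (adjusted p = 0.321), where genotype and series cannot be told apart. Its log2 ratio of the means within a series was 1.01 for LP245/+ to LP+/+ and −0.35 for LPfl/+ to LP+/+. For LP+/+ of the second to the first series it was −0.85. Of the heat shock genes, 0 were called. The part of clock phase and stress in the levels of the 10 genes was not tested.

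The 8 lists of cell type markers gave 0 calls in each comparison. Their medians lay between −0.27 for the erythroid and 0.06 for the endothelial genes in LP245/+ against LP+/+, between −0.83 for the erythroid and 0.30 for the neutrophil genes in LPfl/+ against LP+/+, and between −0.34 for the Kupffer cell and macrophage and 0.37 for the erythroid genes in LP245/+ against LPfl/+. All 6 erythroid genes were lower in LPfl/+ than in LP+/+, 3 of them at an unadjusted p below 0.05, and 7 of 8 endothelial genes were lower there, 2 of them at an unadjusted p below 0.05. Such a p was found in 6.89% of all genes tested in that comparison. Both LPfl/+ livers lie in the second series, and genes of 1 list share their livers and are not independent of each other. All 8 Kupffer cell and macrophage genes were lower in LP245/+ than in LP+/+, with a median of −0.17 and 0 at an unadjusted p below 0.05, beside 5.93% of all genes tested. The part of cell makeup in the levels of the 10 genes was not tested.

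Livers of 1 genotype differed more in these genes than in most genes. The SD of log2 CPM within genotypes had a median of 0.44 over the 9 genes and of 0.22 over all genes tested. To allow for level, each gene was set beside the 1000 tested genes nearest in mean level: Dusp1 (SD 0.499) lay at percentile 98.4, Myc (0.918) at 97.4, Dusp6 (0.440) at 96.9, Jun (0.403) at 95.0 and Junb (0.383) at 91.2. Egr1 (0.548) and Fos (0.562) lay at 89.1 and 86.1, Ier2 (0.234) at 68.7 and Ier3 (0.149) at 0.6. Among LP+/+ livers, the spread of Dusp1, Dusp6 and Myc includes the difference between the series, since these livers lie in both. The SD of Myc also includes the gap between LPfl/+ replicates 1 and 2, at log2 CPM of 0.28 and 2.74. Both lie in the second series.

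**Figure D4:**
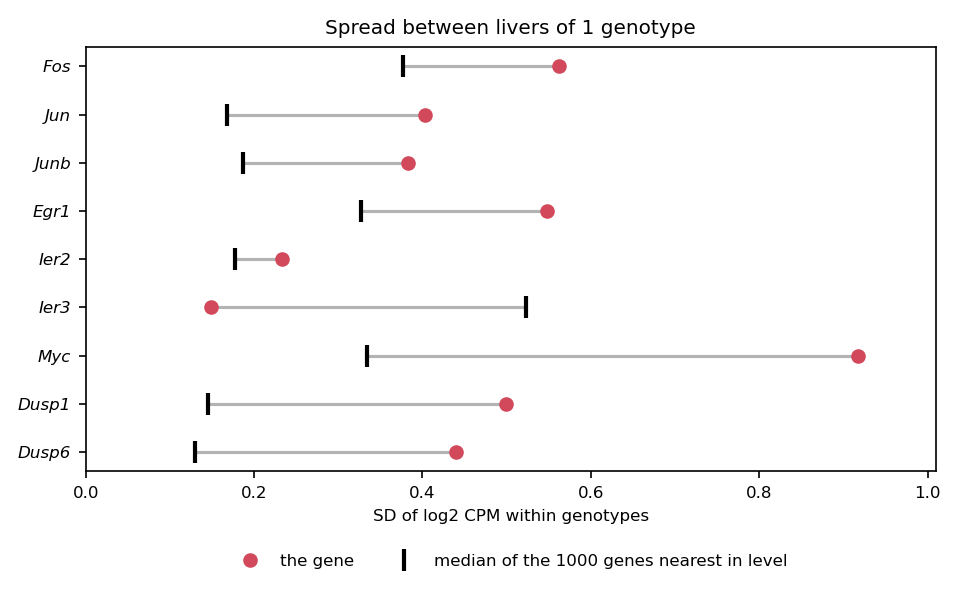
SD of log2 CPM within genotypes (x axis, pooled over the 3 genotypes) for each of the 9 tested genes (y axis), beside the median SD of the 1000 genes nearest in level. Myc has the widest spread at 0.918, and Ier3 (0.149) is the gene below its neighbors' median.

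Livers high in Fos were mostly high in Jun and Egr1 as well, although no pair of genes passed the adjustment over the 45 pairs in the 8 livers. Without LPfl/+ replicate 2, 1 pair passed. With genotype means removed 2 did, by p-values that are too small. Counting the genes above their own median over the 8 livers, LP245/+ replicate 2 had 9 of 10, LP+/+ replicate 1 and LPfl/+ replicate 2 had 7 each, LP+/+ replicate 2 had 6, the 3 livers LPfl/+ replicate 1, LP245/+ replicate 1 and LP245/+ replicate 3 had 3 each, and LP+/+ replicate 3 had 2. Each genotype held livers with many and livers with few. Pearson's r of a gene with the mean of the other 9 was 0.81 for Fos, 0.78 for Jun, 0.76 for Egr1, 0.61 for Junb and 0.48 for Ier2. It was low or negative for Ier3 (0.18), Myc (0.11), Dusp1 (−0.10), Fosb (−0.13) and Dusp6 (−0.22).

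Over the 45 pairs of genes and 8 livers, 29 correlations were positive and 16 negative, with a median r of 0.19. By a 2-sided exact permutation test, 3 pairs had an unadjusted p below 0.05 and 0 had an adjusted p of at most 0.05 over the 45 pairs, the lowest adjusted p being 0.346. Fos gave r = 0.69 and rho = 0.67 with Jun (exact permutation p = 0.0557 and 0.0831, adjusted 0.398 and 0.415), and r = 0.70 without the 2 livers farthest from the median of Fos. With Egr1, Fos gave r = 0.61 and rho = 0.88 (exact permutation p = 0.110 and 0.00724, adjusted 0.398 and 0.163), and r = 0.94 without those livers. With Junb and Ier2, r was 0.66 and 0.64 and fell to 0.25 and 0.21 without those livers, so these relations rested on them. Jun and Egr1 gave r = 0.81 (exact permutation p = 0.0210, adjusted 0.346), and r = 0.45 without the 2 livers farthest from the median of Jun. The other pairs with an unadjusted p below 0.05 were Fosb with Dusp6 (r = 0.82, exact permutation p = 0.0151, adjusted 0.346) and Myc with Dusp6 (r = −0.73, exact permutation p = 0.0231, adjusted 0.346). Dusp6 fell into separate clusters by series. Within the 5 livers of the first series, r with Dusp6 was 0.96 for Fosb and 0.23 for Myc. These relations were not tested within the series of 5 and 3 livers, and Fosb rested on 1 to 7 reads per liver.

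On values from which the genotype means were removed, 2 of the 45 pairs had an adjusted p of at most 0.05, by a permutation that overstates the evidence. Fos and Junb then gave r = 0.89 (exact permutation p = 0.000992, adjusted 0.0223) and rho = 0.95 (adjusted 0.0502), and r = 0.66 without the 2 livers farthest from the median of Fos. Jun and Egr1 gave r = 0.89 (exact permutation p = 0.000719, adjusted 0.0223) and rho = 0.93 (adjusted 0.0502), and r = 0.72 without the 2 livers farthest from the median of Jun. Fos and Jun gave r = 0.87 (exact permutation p = 0.0160, adjusted 0.144) and rho = 0.55 (adjusted 0.592). Values that share a removed mean are not fully exchangeable between livers, which limits these p-values.

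**Figure D5:**
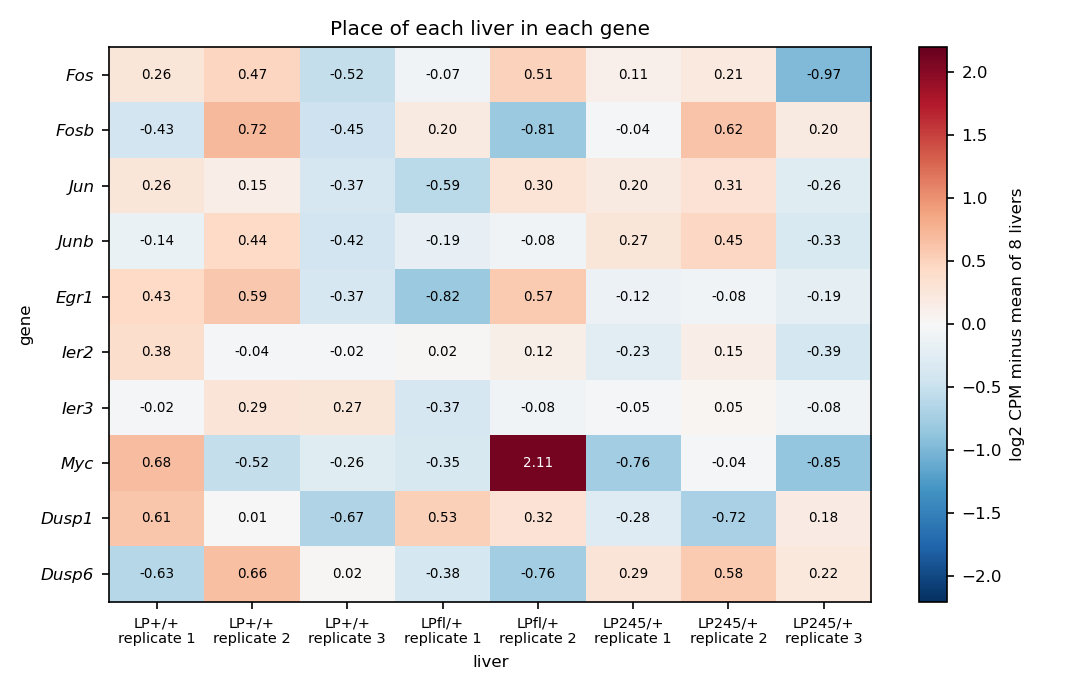
Log2 CPM of the 10 genes (rows) in the 8 livers (columns) minus the mean of the gene over livers, with red for above and blue for below the mean. Fos, Jun and Egr1 share their sign in 6 of the 8 livers, and Myc in LPfl/+ replicate 2 is the farthest value.

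Among 12891 genes outside the member list with a mean log2 CPM of at least 0, those whose pattern over the 8 livers was most like the mean of the 10 genes were C130013H08Rik (r = 0.95), Gopc (0.94), Trim41 (0.93), G6pc3 (0.92), Fosl2 (0.92), Fem1a (0.92), Zfp872 (0.91), Sox9 (0.91), Zfp438 (0.90) and Tmem102 (0.90). Fosl2, an AP-1 subunit, was the only 1 of them on the list of other immediate early genes, and Sox9, a bile duct cell gene, was on the cholangiocyte marker list. These genes were picked by their r from the whole table and share libraries and depth with the 10 genes, so the values are a description.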

How the data were processed

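RNA of 8 mouse livers was measured, and the 3 genotypes were compared 2 at a time. The authors deposited raw read counts per gene, made from stranded total RNA libraries and 76-base paired-end reads that STAR aligned to GRCm38 and counted on a GENCODE annotation, whose release and strand setting are not given in the sources used here. All columns were matched to labels. Symbols and positions came from GENCODE M21, which left 259 of 49585 identifiers without a symbol, and promoter windows from RefSeq (GRCm38.p6).

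The fit used edgeR 4.0.16 in R 4.3.3 with TMM factors, low counts removed by filterByExpr for the genotype groups, quasi-likelihood F tests, all 8 livers in 1 fit and Benjamini-Hochberg adjustment over the 16496 genes tested. The cutoff was that of the study, a log2 fold change of 1 or more in size with an adjusted p no higher than 0.05. DESeq2 1.42.0 gave size factors and an alternative test. Spread and correlations used log2 CPM with a prior count of 2. Exact permutation tests ran over all 40320 pairings of 8 livers (scipy 1.17.1). Levels used the exon length of the annotation. The scripts were checked on simulated counts. Figures were drawn with matplotlib 3.10.9.

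The 10 genes and the gene lists were chosen with earlier results of these data known. Besides the 10 genes, the text names from each list at most 3 genes with the smallest p of the any-genotype test, and otherwise says that a gene was named after its values were seen. Alb, Ttr and Ly6g, as defining cell type markers, were also named after their values were seen. Alternatives covered the tool, the normalization, the filter, the genotypes in the fit, the fold cutoff, each liver left out in turn, and fits with a replicate block or with the library series as covariate. Neither the labels nor the study pair animals by replicate number, and the livers were analyzed as unpaired.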

Additional observations from a re-analysis of the deposited data

How the results depend on the processing

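The count of members past the cutoff stayed at 0 in each comparison under every alternative run but 1, no filter on low counts, under which it was 1 (Myc) in LP245/+ against LPfl/+. The number of member pairs with an adjusted p of at most 0.05 was 2 (Fos with Junb and Jun with Egr1) in place of 0 on genotype-centred values, and 0 to 1 without single livers (1 without LPfl/+ replicate 2). On genotype-centred values the permutation treats 8 values with 5 degrees of freedom as exchangeable, so those p-values are too small. The cause of these changes in the count was not tested. The median SD of the members stayed between 0.39 and 0.49 without single livers. Of 212 fold changes of members under the other alternatives, 197 kept their direction and side of the threshold.

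With the library series as a covariate, log2 fold changes turned for Dusp1 (0.062) and Dusp6 (−0.0027) in LP245/+ against LP+/+, for Fos (−0.011), Junb (0.011), Dusp1 (−0.19) and Dusp6 (0.065) in LPfl/+ against LP+/+, and for Egr1 (0.079), Ier2 (0.20), Ier3 (−0.12), Dusp1 (0.25) and Dusp6 (−0.068) in LP245/+ against LPfl/+. With library totals, Ier2 turned in LPfl/+ against LP+/+ (0.0095).

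Same-numbered livers did not deviate together (correlations of their deviations from −0.08 to 0.03). With the replicate number as a block, 0 members were called in each comparison, and Fos in LPfl/+ against LP+/+ (−0.18) and Egr1 in LP245/+ against LPfl/+ (0.083) turned.

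Without single livers, 17 of 210 fold changes of members turned. In LP245/+ against LP+/+ the ranges were −0.53 to 0.026 for Fos, −0.11 to 0.21 for Jun, −0.022 to 0.44 for Junb, −0.58 to 0.062 for Dusp1 and −0.0020 to 0.63 for Dusp6. In LPfl/+ against LP+/+ they were −0.22 to 0.39 for Fos, −0.65 to 0.25 for Jun, −0.33 to 0.13 for Junb, −1.16 to 0.29 for Egr1, −0.13 to 0.11 for Ier2 and −0.45 to 2.08 for Myc. In LP245/+ against LPfl/+ they were −0.19 to 0.71 for Jun and −0.73 to 0.73 for Egr1. Where LPfl/+ was left with 1 liver, the fit assumes that it varies like the other genotypes. Depth limits Fosb (1 to 7 reads) and Ier3 (7 to 13 reads) most.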
